A study of Sus scrofa with 6 samples.

Results

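The 38 genes described here encode the core machinery of autophagy together with its cargo receptors and a few lysosomal and regulatory genes. They were chosen as the rows of the deposited count table whose pig Ensembl identifier maps to the symbol of a named autophagy gene. All 38 symbols matched 1 identifier each, out of 35670 identifiers in the table, and all 38 had enough reads to be tested. Their RNA was read out by stranded mRNA sequencing of primary granulosa cells from pig (Sus scrofa), which are follicle cells that nurse the growing oocyte. Heat samples (n = 3) spent 6 h at 42 °C, and control samples (n = 3) spent that time at 37 °C. The cells of both groups were aspirated from small healthy follicles, grown on plastic in DMEM with fetal bovine serum under CO2 in humidified air, and released with trypsin at harvest. Samples are labelled as biological replicates with no word on whether separate animals or cultures were used, so the p-values measure only the spread between these samples.

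Macroautophagy encloses cytoplasm, damaged organelles or protein aggregates in a double membrane, the autophagosome, which then fuses with the lysosome for degradation of its content. A kinase complex starts the process, a lipid kinase complex marks the site with phosphatidylinositol 3-phosphate (PI3P), lipid transfer proteins feed the growing membrane, and a ubiquitin-like conjugation system attaches proteins of the ATG8 family to it. Cargo receptors bind both the ATG8 proteins and the ubiquitinated cargo. In the follicle, granulosa cells are known to use autophagy during atresia and under stress.

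The deposited counts summed to between 20411952 and 29606378 per heat library and between 18711440 and 22599356 per control library. The libraries were not equally alike. Heat 1 and heat 2 had a Pearson correlation of log2 CPM across genes of 0.991 (CPM counts reads relative to the size of their library, here with TMM factors), and control 2 and control 3 had one of 0.990. Heat 3 correlated with heat 1 and heat 2 at 0.916 and 0.909 but with control 1 at 0.920, and control 1 correlated with control 2 and control 3 at 0.901 and 0.905. Heat 3 correlated less with control 2 and control 3 (0.880 and 0.892). Control 1 correlated less with heat 1 and heat 2 (0.892 and 0.885). These values describe likeness only, since genes are not independent replicates. Chi-square per degree of freedom was 16.8 between heat 1 and heat 2 and 20.4 between control 2 and control 3, above counting noise alone, and 441 to 538 between the other libraries of a group. Repeat libraries of 1 culture could also exceed counting noise, so all 6 libraries enter as labelled and the fit with each alike pair summed is given too. Of 14 granulosa markers found, 9 were tested by edgeR and none was called, with 1 of them at an unadjusted p below 0.05. CYP11A1, INHBA and GJA1 were present in every library. FSHR, the receptor that defines the granulosa lineage, had 0, 0.0930 and 0 CPM in heat and 0.401, 2.14 and 0.744 CPM in control, and LHCGR, AMH, INHA and HSD17B1 stayed too low to test. All 8 stromal markers were detected, with none at 0, and their summed share of counts was 3.37 to 8.72% in heat and 0.893 to 4.90% in control. Leukocyte markers summed to 1.31 to 4.39 CPM in heat and 3.34 to 68.6 CPM in control. LYZ made up 26.3 of 34.1 CPM in control 2 and 54.1 of 68.6 CPM in control 3, with 0.467 CPM in control 1. Of the 3 leukocyte markers tested, edgeR called LYZ lower (log2 fold change -6.01, adjusted p = 0.0447) and did not call CD68 or CD14. PTPRC, the common leukocyte antigen CD45, was at 0 in heat 1, heat 2, heat 3 and control 1. Theca markers summed to 79.4, 74.7 and 28.6 CPM in heat and 26.6, 5.89 and 6.45 CPM in control, with INSL3 at 0 in every library, NR2F2 and TCF21 above control in every heat library, and none of the 3 tested called by edgeR (3 at an unadjusted p below 0.05). Surface epithelium markers summed to 71.0, 108.7 and 20.6 CPM in heat and 22.4, 3.93 and 6.45 CPM in control, and KRT8 and UPK3B of the 3 tested were called higher by edgeR (adjusted p = 0.0477 and 0.0309). PECAM1 (endothelium) was detected at 5.23 to 10.8 CPM in heat and 7.74 to 9.47 CPM in control with CDH5 at 0 in every library. Of the oocyte markers, GDF9 was called higher by edgeR (adjusted p = 0.0477) and ZP3 was at 0 in every library.

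The 38 autophagy genes were divided in heat, with a median change near 0. The kinase gene ULK1, the lipid transfer gene ATG2A, the scramblase gene ATG9A and the conjugation gene ATG16L1 rose in heat, and the lipid kinase gene PIK3C3 fell. By edgeR's quasi-likelihood test with Benjamini-Hochberg adjustment over 14242 genes, 4 of 38 were called higher (adjusted p below 0.05), where 6.71% of all tested genes were. One gene of 38 was called lower, where 4.32% of all tested genes were. The 5 calls make up 13.2% of the 38 genes, near the 11.0% called over all tested genes in either direction. The median log2 fold change (heat minus control) over the 38 genes was -0.0050, with 19 positive and 19 negative values between -1.70 and 2.23, and the median over all tested genes was 0.052. In bulk RNA, fewer cells of a type and less RNA per cell cannot be told apart, here or in any value that follows.

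Separation of the groups was more frequent than the calls. Heat libraries were all above control libraries for 11 of the 38 genes, where this was so for 20.9% of all tested genes, and all below for 6 of the 38, where it was so for 16.8%. Together the groups did not overlap for 17 of 38 autophagy genes (44.7%) and for 37.8% of all tested genes. An unadjusted p below 0.05 was reached by 13 of the 38 and by 33.9% of all tested genes, about the same share. Scaling by library totals in place of TMM moved the median of all tested genes to 0.17 on the log2 scale. It turned the split of calls over all genes to 1583 higher and 416 lower, against 956 higher and 615 lower with TMM. The 5 autophagy genes called under that scaling were all higher: PIK3C3 was not called (adjusted p = 0.0640) and LAMP1 was.

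**Figure D1:**
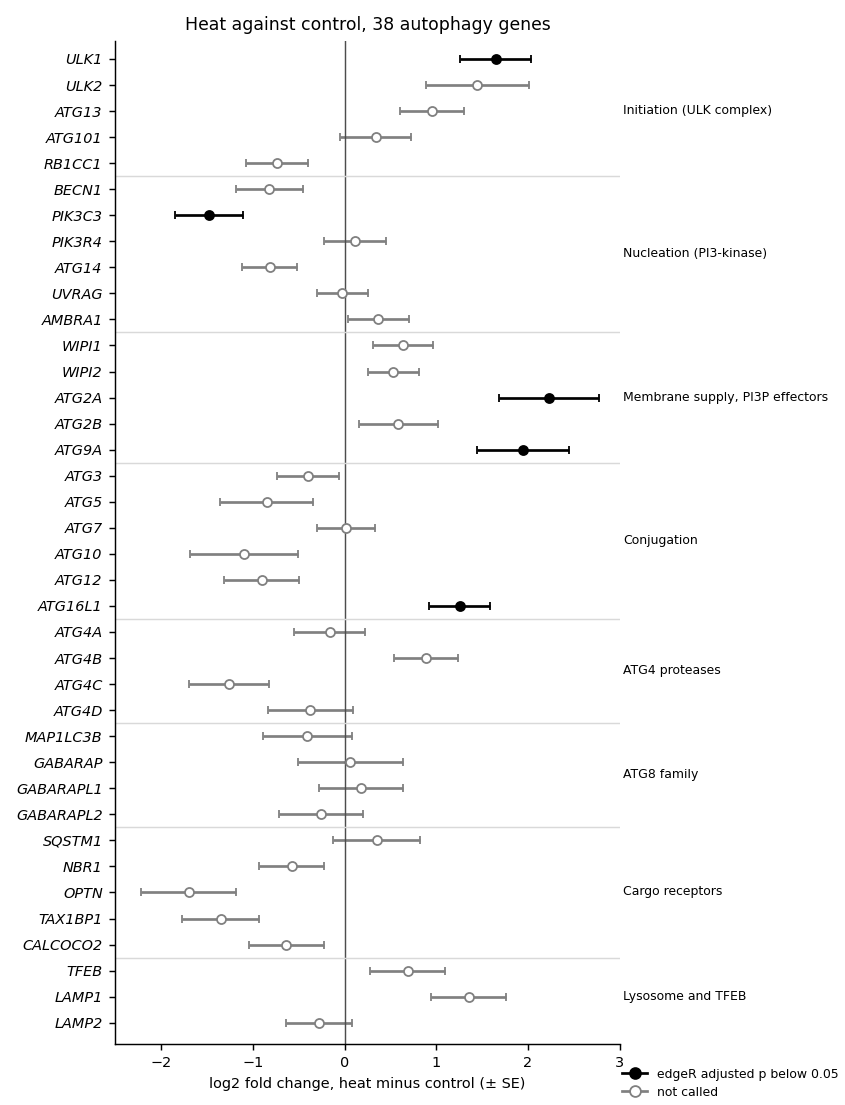
Log2 fold change, heat minus control, of each of the 38 genes with its SE, grouped by role. Filled points mark the 5 genes with an edgeR adjusted p below 0.05: ULK1, ATG2A, ATG9A and ATG16L1 lie to the right of 0 and PIK3C3 to the left.

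Among the initiation genes, 1 of 5 was called, and the paralogous kinases moved with different spread. ULK1, the kinase that starts autophagosome formation when nutrients or energy fall, lies at chr14:23423693-23448130 on Sscrofa11.1. Its level was 22.9, 23.8 and 18.9 CPM in heat 1, 2 and 3, against 10.9, 4.76 and 5.36 CPM in control 1, 2 and 3. Every heat library stood above every control library, and control 1 was the nearest of the controls to the heat group. ULK1 averaged 21.9 ± 2.59 CPM in heat and 7.00 ± 3.38 CPM in control (SD, n = 3 each), and it rose by a log2 fold change of 1.65 ± 0.39 (SE, edgeR adjusted p = 0.0416). ULK2, its paralog, had 49.7, 53.1 and 40.0 CPM in heat and 34.5, 8.38 and 9.62 CPM in control. The groups did not overlap for ULK2 either, yet control 1 stood next to heat 3, and the gene did not pass the test (1.45 ± 0.56, edgeR adjusted p = 0.118). Without control 1 the ULK2 value was 2.38 with an edgeR adjusted p of 0.00659. Without heat 3 it was 1.54 and not called (edgeR adjusted p = 0.121). Fits without control 1 or without heat 3 keep a near-identical pair as a whole group, and called 31.9 and 36.1% of all tested genes. This limit applies to every call below that such a fit gained or kept.

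The reads of ULK1 per read of ULK2 were 0.461, 0.448 and 0.474 in heat and 0.315, 0.568 and 0.557 in control. The heat ratios lay inside the range of the control ratios, so the balance of the kinase paralogs was not separated by group. Leaving out heat 1, heat 2, control 2 or control 3 ended the ULK1 call, with edgeR adjusted p-values of 0.163, 0.157, 0.171 and 0.164. It held without heat 3 (0.0280) and without control 1 (0.00716).

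ATG13, the adaptor that ties the ULK kinases to their scaffold, had 26.4, 23.3 and 41.6 CPM in heat and 19.2, 11.4 and 16.6 CPM in control. Heat was above control in every library, with heat 3 highest, but the difference did not pass (0.95 ± 0.35, edgeR adjusted p = 0.105). RB1CC1, the large scaffold known as FIP200, had 218, 212 and 292 CPM in heat and 484, 389 and 332 CPM in control. All heat libraries were below all control libraries for RB1CC1, the reverse of the other separated genes of its complex, and it did not pass either (-0.74 ± 0.34, edgeR adjusted p = 0.167). DESeq2 did call RB1CC1 (adjusted p = 0.0479). ATG101, the small partner that stabilizes ATG13, had 3.14, 4.79 and 5.50 CPM in heat and 2.60, 3.76 and 4.26 CPM in control, with overlapping groups (0.34 ± 0.38, edgeR adjusted p = 0.553). The median over the 5 initiation genes was 0.95 on the log2 scale.

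**Figure D2:**
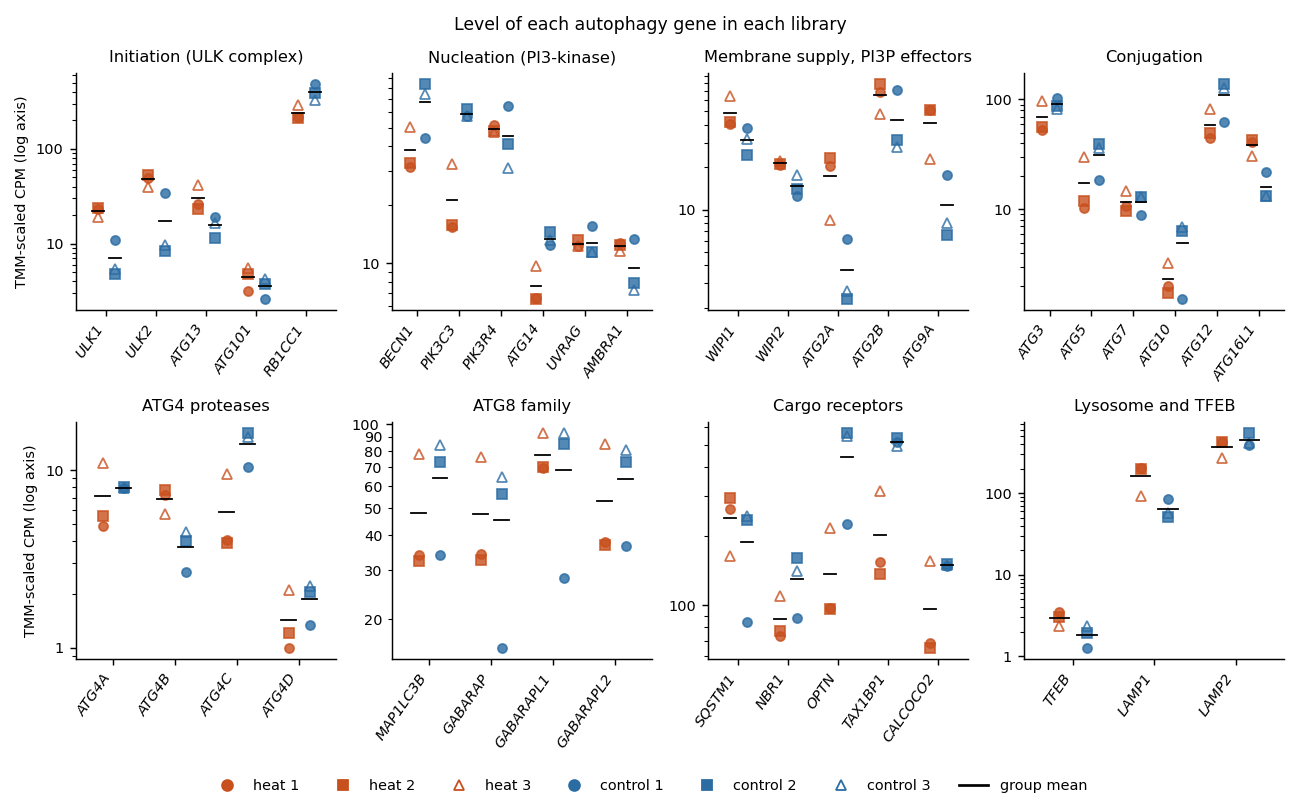
TMM-scaled CPM of each gene in each library on log axes, 1 panel per role, with heat to the left of control and a black bar at each group mean. Heat 3 and control 1 often stand away from the other libraries of their group, as in the ATG8 panel, where control 1 lies with heat 1 and heat 2 or below them.

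The nucleation genes, which encode the lipid kinase complex and its regulators, held the single gene of the 38 that edgeR called lower. PIK3C3, the catalytic subunit (VPS34) that makes PI3P, lies at chr6:125890598-126038753. It had 15.4, 15.8 and 32.4 CPM in heat and 57.5, 62.0 and 57.3 CPM in control. The controls lay close together, and heat 3 stood between them and the other heat libraries. PIK3C3 averaged 21.2 ± 9.69 CPM in heat and 59.0 ± 2.68 CPM in control (SD, n = 3 each) and fell by 1.48 ± 0.37 on the log2 scale (SE, edgeR adjusted p = 0.0461). The call was lost without heat 1, heat 2, control 2 or control 3 (edgeR adjusted p = 0.177, 0.170, 0.171 and 0.159). Without heat 3 the log2 fold change was -1.94 and the adjusted p 0.00853, and without control 1 they were -1.52 and 0.0315.

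PIK3R4 (VPS15), the regulatory subunit that is always bound to PIK3C3, did not follow it. PIK3R4 had 51.5, 48.1 and 47.6 CPM in heat and 64.2, 41.2 and 30.9 CPM in control (0.11 ± 0.34, edgeR adjusted p = 0.835). The heat libraries lay inside the control range, and the fold change turned to -0.13 without control 3. The reads of PIK3C3 per read of PIK3R4 were 0.298, 0.329 and 0.680 in heat and 0.895, 1.51 and 1.86 in control. Every heat ratio was below every control ratio, with means of 0.436 ± 0.212 in heat and 1.42 ± 0.486 in control (SD, n = 3 each). This pair and the other ratios were chosen after the values were seen and were not tested.

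BECN1, the Beclin 1 subunit that is a docking site for BCL2 family proteins, had 31.2, 32.7 and 50.6 CPM in heat and 44.0, 83.9 and 74.2 CPM in control. Control 1 lay below heat 3, so the groups overlapped, and the gene did not pass (-0.82 ± 0.36, edgeR adjusted p = 0.155). ATG14, which directs the complex to the forming autophagosome, had 6.63, 6.56 and 9.63 CPM in heat and 12.5, 14.5 and 13.2 CPM in control. Heat was below control in every library for ATG14, short of the threshold in edgeR (-0.81 ± 0.30, adjusted p = 0.103) and past it in DESeq2 (adjusted p = 0.0342). Without heat 3, edgeR called ATG14 (adjusted p = 0.0190) and BECN1 (adjusted p = 0.04997). Without control 1 it called BECN1 (adjusted p = 0.0392) but not ATG14 (adjusted p = 0.0543).

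UVRAG, which takes the place of ATG14 in the endosomal form of the complex, had 12.2, 13.2 and 12.3 CPM in heat and 15.5, 11.4 and 11.5 CPM in control. The groups overlapped, and the fold change of -0.027 ± 0.28 (edgeR adjusted p = 0.955) became 0.011 under upper-quartile scaling and 0.12 under library totals. AMBRA1, a Beclin 1 partner, had 12.7, 12.5 and 11.6 CPM in heat and 13.3, 7.90 and 7.29 CPM in control, where control 1 was the highest of the 6 libraries (0.37 ± 0.33, edgeR adjusted p = 0.447). AMBRA1 overlaps an annotated pseudogene, so its reads are uncertain too. Over the 6 nucleation genes, 0 were called higher and 1 lower, with a median log2 fold change of -0.42.

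The genes that supply membrane and read PI3P had 2 of 5 called, both higher. ATG2A, a bridge-like protein that moves lipids from the endoplasmic reticulum into the growing membrane, lies at chr2:7261819-7282614. It had 20.3, 23.3 and 8.43 CPM in heat and 6.21, 2.31 and 2.63 CPM in control. Heat 1 and heat 2 were far above the rest, while heat 3 and control 1 lay near each other in the middle. ATG2A averaged 17.4 ± 7.87 CPM in heat and 3.72 ± 2.16 CPM in control (SD, n = 3 each). It had the largest positive log2 fold change of the 38 genes, 2.23 ± 0.55 (SE, edgeR adjusted p = 0.0440).

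Its paralog ATG2B had 69.0, 78.3 and 47.6 CPM in heat and 70.8, 31.3 and 28.0 CPM in control. Control 1 was as high as heat 1, and the gene did not pass (0.58 ± 0.43, edgeR adjusted p = 0.362) except without control 1 (1.11, adjusted p = 0.0389). The reads of ATG2A per read of ATG2B were 0.295, 0.297 and 0.177 in heat and 0.0877, 0.0739 and 0.0938 in control. These ratios did not overlap, and they averaged 0.257 ± 0.0687 in heat and 0.0851 ± 0.0102 in control (SD, n = 3 each, not tested). A read ratio depends on the transcript lengths as well as on the levels, so it can be compared between libraries but does not say which paralog is more abundant.

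ATG9A, the only membrane-spanning ATG protein of this set, is a scramblase that evens out lipids between the leaflets and works together with ATG2. It lies at chr15:121254355-121265564. Its level was 50.9, 51.1 and 22.7 CPM in heat, against 17.8, 6.59 and 8.03 CPM in control. The order of the libraries matched that of ATG2A, with heat 3 and control 1 next to each other. ATG9A averaged 41.6 ± 16.3 CPM in heat and 10.8 ± 6.07 CPM in control (SD, n = 3 each) and rose by 1.95 ± 0.50 on the log2 scale (SE, edgeR adjusted p = 0.0483). The ATG2A call was lost without heat 1, heat 2, control 2 or control 3 (edgeR adjusted p = 0.164, 0.159, 0.171 and 0.164). The ATG9A call was lost without the same libraries (edgeR adjusted p = 0.173, 0.163, 0.181 and 0.176), and also with RLE scaling (adjusted p = 0.0518).

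The PI3P-binding propellers WIPI1 and WIPI2 were separated by group without a call. WIPI1, an early marker of autophagosome formation, had 40.8, 42.1 and 63.9 CPM in heat and 38.1, 24.5 and 31.9 CPM in control (0.64 ± 0.33, edgeR adjusted p = 0.202). WIPI2, which recruits ATG16L1 to the PI3P site, had 20.6, 21.1 and 22.2 CPM in heat and 12.5, 14.1 and 17.8 CPM in control (0.53 ± 0.28, edgeR adjusted p = 0.210). The heat libraries of WIPI2 had an SD of 0.825 CPM (n = 3) and all lay above the highest control. WIPI1 overlaps the protein-coding gene ARSG in the annotation, so its reads are uncertain where strand was not used in the counting. The reads of WIPI1 per read of WIPI2 were 1.98, 1.99 and 2.87 in heat and 3.05, 1.74 and 1.80 in control, with overlap. Over the 5 genes the median was 0.64, and heat was above control in every library for 4 of 5.

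In the conjugation system, ATG16L1 rose and the other 5 genes did not pass. ATG16L1, which places the conjugation enzyme on the membrane, lies at chr15:133651294-133693472. It had 41.3, 43.2 and 30.4 CPM in heat and 21.8, 13.2 and 13.2 CPM in control. All heat libraries were above all control libraries, with averages of 38.3 ± 6.94 CPM in heat and 16.1 ± 4.94 CPM in control (SD, n = 3 each). The log2 fold change was 1.26 ± 0.33 (SE), and the edgeR adjusted p of 0.0499 lay at the threshold. With RLE scaling it was 0.0549 and not called. Leaving out heat 1, heat 2, control 2 or control 3 also ended the call (edgeR adjusted p = 0.189, 0.182, 0.204 and 0.195), while 0.0228 without heat 3 and 0.0131 without control 1 kept it.

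The genes of the ATG12 to ATG5 linkage, which ATG16L1 joins, did not pass. ATG5, to which ATG12 is joined, had 10.2, 11.9 and 30.2 CPM in heat and 18.5, 39.6 and 36.3 CPM in control (-0.85 ± 0.50, edgeR adjusted p = 0.261). ATG12, the ubiquitin-like protein itself, had 44.3, 49.4 and 81.7 CPM in heat and 63.0, 138 and 127 CPM in control (-0.90 ± 0.41, edgeR adjusted p = 0.163). In both, control 2 and control 3 were highest and heat 3 lay above control 1. ATG10, the enzyme that passes ATG12 on to ATG5, had 1.99, 1.72 and 3.24 CPM in heat and 1.54, 6.37 and 6.99 CPM in control (-1.10 ± 0.59, edgeR adjusted p = 0.223). Control 1 held the lowest ATG10 value of the 6 libraries.

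ATG7, the activating enzyme of both conjugation arms, had 10.8, 9.76 and 14.7 CPM in heat and 8.95, 13.0 and 12.9 CPM in control. The groups overlapped throughout, and the fold change of 0.017 ± 0.31 (edgeR adjusted p = 0.976) took a negative sign under RLE scaling (-0.042). ATG3, which attaches lipid to the ATG8 proteins, had 52.6, 56.6 and 97.1 CPM in heat and 103, 87.9 and 81.8 CPM in control (-0.40 ± 0.34, edgeR adjusted p = 0.417). Without heat 3, edgeR called ATG3 (-0.75, adjusted p = 0.0430) and ATG5 (-1.52, adjusted p = 0.0339), but not ATG10 or ATG12 (adjusted p = 0.145 and 0.0560). Without control 1 it called ATG10 (-1.54, adjusted p = 0.0264) and ATG12 (-1.21, adjusted p = 0.0397), but not ATG3 or ATG5 (adjusted p = 0.468 and 0.116). The median of the 6 conjugation genes was -0.63. ATG3, ATG5, ATG7 and ATG12 overlap other annotated genes, and since use of strand in the counting is not stated their reads are uncertain.

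None of the 4 ATG4 proteases, which trim newly made ATG8 proteins and later release them from the membrane, was called by edgeR. An unadjusted p below 0.05 was reached by 2 of them, ATG4B and ATG4C, in opposite directions, and DESeq2 called ATG4C. ATG4B, the family member with the widest activity on ATG8 proteins, had 7.23, 7.76 and 5.65 CPM in heat and 2.67, 3.97 and 4.46 CPM in control, with heat above control in every library (0.89 ± 0.35, edgeR adjusted p = 0.120). ATG4C had 4.04, 3.91 and 9.57 CPM in heat and 10.5, 16.2 and 15.4 CPM in control, with heat below control in every library (-1.26 ± 0.44, edgeR adjusted p = 0.0909). Heat 3 and control 1 were neighbours at the border between the ATG4C groups. ATG4C was called without heat 3 (-1.84, edgeR adjusted p = 0.0117), as was ATG4B (1.00, edgeR adjusted p = 0.0492). Neither was called without control 1 (edgeR adjusted p = 0.0506 for ATG4C and 0.117 for ATG4B).

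The other proteases overlapped. ATG4A had 4.84, 5.49 and 11.0 CPM in heat and 7.95, 8.03 and 7.98 CPM in control (-0.16 ± 0.39, edgeR adjusted p = 0.786). Its controls spread by only 0.0446 CPM (SD, n = 3) while the heat libraries lay on both sides of them. ATG4D had 0.997, 1.21 and 2.11 CPM in heat and 1.34, 2.05 and 2.23 CPM in control (-0.37 ± 0.46, edgeR adjusted p = 0.588). All 4 ATG4 genes overlap another annotated gene.

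The 4 ATG8 genes, whose products coat the autophagosome and bind the cargo receptors, showed no separation by group. No ATG8 gene was called by edgeR or DESeq2, and 0 of 4 reached an unadjusted p below 0.05 in edgeR. MAP1LC3B, the LC3B protein used as the standard autophagosome marker, lies at chr6:1919879-1941069. It had 34.0, 32.4 and 78.5 CPM in heat and 34.1, 73.2 and 84.5 CPM in control (-0.41 ± 0.49, edgeR adjusted p = 0.574). Heat 3 lay with control 2 and control 3, and control 1 lay with heat 1 and heat 2. The same arrangement held for GABARAP, with 34.3, 32.6 and 76.0 CPM in heat and 15.8, 56.4 and 64.5 CPM in control (0.064 ± 0.57, edgeR adjusted p = 0.947, and of negative sign under RLE scaling).

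GABARAPL1 had 69.6, 70.4 and 93.0 CPM in heat and 28.2, 84.7 and 92.7 CPM in control (0.18 ± 0.46, edgeR adjusted p = 0.800). GABARAPL2, also known as GATE-16, had 37.8, 36.8 and 85.0 CPM in heat and 36.6, 73.5 and 80.9 CPM in control (-0.26 ± 0.46, edgeR adjusted p = 0.711). Summed over the 4 genes, ATG8 RNA came to 176, 172 and 333 CPM in heat and 115, 288 and 323 CPM in control. Both groups thus held high and low libraries, and the spread within each was larger than the difference between the means. The signs of GABARAP and GABARAPL1 turned negative without control 1 (-0.37 and -0.22), and GABARAP also without heat 3 (-0.46).

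**Figure D3:**
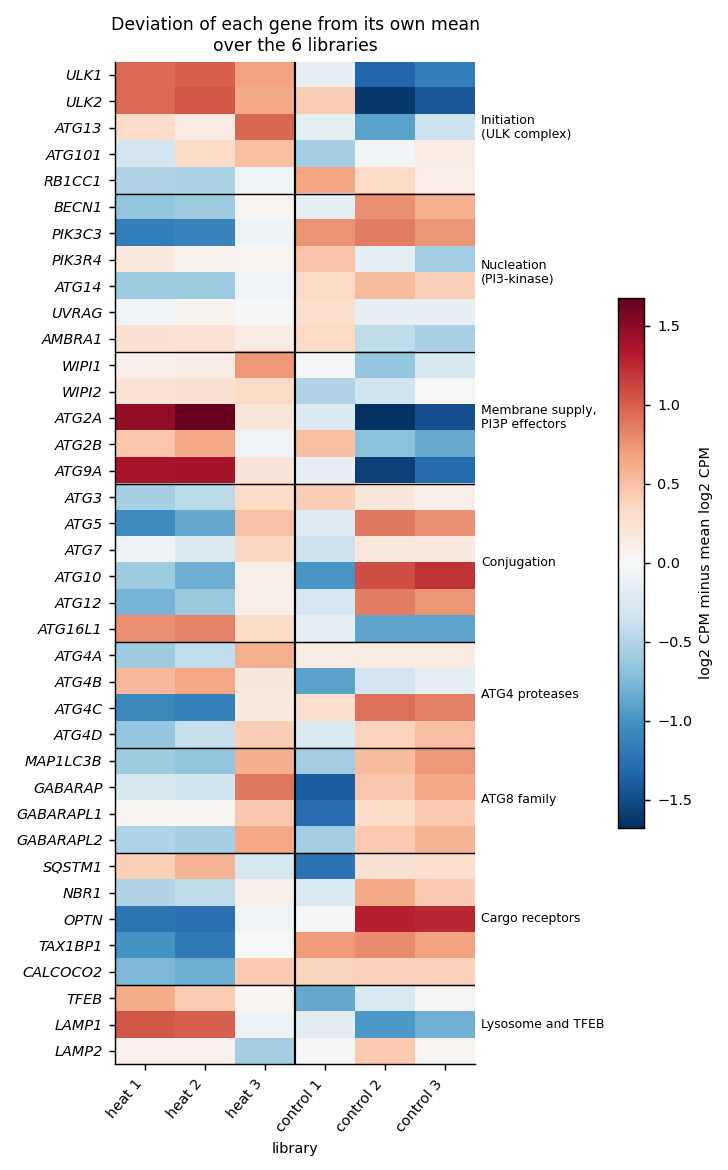
Log2 CPM of each gene in each library minus the mean of that gene over the 6 libraries, with heat libraries to the left of the black line. Columns heat 1 and heat 2 resemble each other, as do control 2 and control 3, while heat 3 and control 1 take the sign of the other group for many genes, most plainly in the ATG8 rows.

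Of the cargo receptors, OPTN and TAX1BP1 stood below control in every heat library, yet none of the 5 receptor genes was called by edgeR. Both had an unadjusted p below 0.05 and were called lower by DESeq2 (adjusted p = 0.00457 for OPTN and 0.00417 for TAX1BP1). OPTN (optineurin), a receptor for damaged mitochondria and bacteria, lies at chr10:48532029-48582952 and had 97.6, 95.9 and 216 CPM in heat against 225, 562 and 544 CPM in control. Heat 3 and control 1 met at the border between the groups. OPTN averaged 137 ± 69.0 CPM in heat and 444 ± 189.9 CPM in control (SD, n = 3 each), and its log2 fold change of -1.70 ± 0.52 (SE) was the most negative of the 38 genes, with an edgeR adjusted p of 0.0685. It passed without heat 3 (-2.21, adjusted p = 0.0229) and without control 1 (-2.04, adjusted p = 0.0208).

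TAX1BP1, a receptor that also limits inflammatory signalling, lies at chr18:44827908-44910265. It had 155, 137 and 313 CPM in heat and 511, 537 and 495 CPM in control. The controls had an SD of 20.9 CPM (n = 3), and heat 3 stood between them and the other heat libraries. TAX1BP1 averaged 202 ± 97.1 CPM in heat and 514 ± 20.9 CPM in control, and the log2 fold change was -1.35 ± 0.42 (SE, edgeR adjusted p = 0.0700). Without heat 3 it was -1.84 (edgeR adjusted p = 0.00963). TAX1BP1 was not called without control 1 (-1.38, edgeR adjusted p = 0.0518). Leaving out heat 1, heat 2, control 2 or control 3 gave edgeR adjusted p-values of 0.236, 0.232, 0.216 and 0.188. CALCOCO2 (NDP52), a receptor related to TAX1BP1, had 68.6, 65.2 and 156 CPM in heat and 149, 151 and 150.4 CPM in control. Here heat 3 was above every control, so the groups overlapped (-0.63 ± 0.40, edgeR adjusted p = 0.295). CALCOCO2 passed without heat 3 (-1.18, edgeR adjusted p = 0.0130) but not without control 1 (-0.67, edgeR adjusted p = 0.266).

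SQSTM1, which encodes the aggregate receptor p62, lies at chr2:78752768-78763998. It had 262, 294 and 164 CPM in heat and 84.7, 236 and 244 CPM in control. Control 1 was the lowest library and heat 3 the next lowest, so the groups overlapped, with averages of 239.8 ± 67.8 CPM in heat and 188 ± 89.7 CPM in control (SD, n = 3 each). SQSTM1 did not pass (0.35 ± 0.47, edgeR adjusted p = 0.622), and its fold change was -0.024 without control 1. NBR1, a receptor that shares its domain plan with p62, had 73.1, 77.5 and 110.2 CPM in heat and 87.9, 161 and 141 CPM in control (-0.58 ± 0.35, edgeR adjusted p = 0.270). SQSTM1 overlaps MRNIP in the annotation and NBR1 overlaps another protein-coding gene, so reads of both are uncertain. Summed over the 5 receptors, RNA came to 656, 669 and 959.5 CPM in heat and 1058, 1647 and 1574 CPM in control. Every heat sum was below every control sum, which was not tested. Among single receptors only 2, OPTN and TAX1BP1, were separated in this way. The other 3 overlapped, and SQSTM1 averaged higher in heat. The median fold change was -0.63.

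The lysosomal membrane genes and TFEB, the factor that drives lysosomal and autophagy genes, had no call in edgeR. One of the 3, LAMP1, had an unadjusted p below 0.05 and was called higher by DESeq2 (adjusted p = 0.0202). LAMP1, a major glycoprotein of the lysosomal membrane, lies at chr11:78600818-78617587 and had 204, 198 and 92.3 CPM in heat against 86.2, 50.6 and 56.6 CPM in control. The groups did not overlap, heat 3 and control 1 being neighbours again, and averages were 165 ± 62.7 CPM in heat and 64.5 ± 19.0 CPM in control (SD, n = 3 each). The log2 fold change was 1.35 ± 0.41 (SE, edgeR adjusted p = 0.0681). LAMP1 passed without heat 3 (edgeR adjusted p = 0.0155) and without control 1 (edgeR adjusted p = 0.0362), fits that called 36.1 and 31.9% of all tested genes.

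LAMP2, which includes the receptor of chaperone-mediated autophagy among its isoforms, had 427, 427 and 272 CPM in heat and 397, 549 and 418 CPM in control (-0.28 ± 0.36, edgeR adjusted p = 0.606). Its groups overlapped. The reads of LAMP1 per read of LAMP2 were 0.477, 0.464 and 0.340 in heat and 0.217, 0.0922 and 0.135 in control. These ratios did not overlap, with means of 0.427 ± 0.0759 in heat and 0.148 ± 0.0636 in control (SD, n = 3 each, not tested). TFEB had 3.54, 3.07 and 2.35 CPM in heat and 1.27, 1.92 and 2.33 CPM in control. Heat 3 and control 3 were almost equal for TFEB, whose 19 reads in control 1 were the lowest single count of the 38 genes, and it did not pass (0.69 ± 0.41, edgeR adjusted p = 0.261).

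The place of heat 3 and control 1 recurred across roles. In 13 of the 38 genes, control 1, heat 1 and heat 2 were all below the other 3 libraries, and in 3 genes all above. The 13 were BECN1, ATG5, ATG7, ATG10, ATG12, ATG4A, ATG4D, NBR1, CALCOCO2 and the 4 ATG8 genes, and the 3 were PIK3R4, AMBRA1 and ATG2B. Heat 3 was nearer in log2 CPM to the mean of control 2 and control 3 than to that of heat 1 and heat 2 for 22 of 38 genes. Control 1 was nearer to the mean of heat 1 and heat 2 than to that of the other controls for 21 of 38. These counts were not taken over all tested genes, so the arrangement is not shown to be particular to the autophagy genes. Across all tested genes, heat 3 correlated more with heat 1 and heat 2 than with control 2 and control 3. Control 1 likewise correlated more with the other controls than with heat 1 and heat 2. By comparison, no autophagy gene differed by more than 0.59 on the log2 scale between heat 1 and heat 2, or by more than 0.54 between control 2 and control 3.

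Summed, the stromal marker list was highest in heat 1 and heat 2 and lowest in control 2 and control 3. ATG2A and ATG9A had these places too, but in the list control 1 stood above heat 3. It took 8.72, 8.52 and 3.37% of counts in heat 1, 2 and 3 and 4.90, 0.917 and 0.893% in control 1, 2 and 3. COL1A1, COL1A2 and COL3A1 made up most of the sum (20725, 41605 and 24429 of 89462 CPM in heat 1). They and PDGFRA and PDGFRB were highest in heat 1 and heat 2. DCN and LUM were highest in control 1 (107 and 349 CPM), and VIM was highest in heat 3 and lowest in heat 2 (2418 and 1477 CPM). Smooth muscle markers, all 5 detected, took 0.679, 0.709 and 1.62% in heat and 0.819, 1.01 and 1.11% in control. Heat 3 had the highest share, and GABARAPL1 and GABARAPL2 were highest in heat 3 too. ACTA2, TAGLN, CNN1 and DES were each highest in heat 3. MYH11 of the same list was lowest in heat 3 (1203 CPM) and highest in control 1 (2887 CPM). The part of these lists, and of the theca and surface epithelium lists above, in the values of the autophagy genes was not tested.

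The number of autophagy genes called followed the libraries used. Without heat 3, edgeR called 15 of 38 (6 higher and 9 lower), where 36.1% of all tested genes were called. Without control 1 it called 12 of 38 (7 higher and 5 lower), where 31.9% were. With both left out it called 34 of 38, 14 higher and 20 lower, and 79.6% of all tested genes. The 4 not called then were ATG101, UVRAG, SQSTM1 and LAMP2. This fit compares near-identical pairs of libraries, and each of the fits before it keeps such a pair as a whole group. How far such pairs stand for separate cultures is not stated.

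In the other direction, 0 of 38 were called by edgeR without heat 1 (0.0475% of all tested genes called), without heat 2 (0.0406%), without control 2 (0.00%) or without control 3 (0.00%). In these fits, in that order, 8, 8, 7 and 8 autophagy genes had an unadjusted p below 0.05, as did 21.4, 22.0, 21.1 and 22.0% of all tested genes. With each near-identical pair summed to 1 sample, edgeR again called 0 of 38, with 3 at an unadjusted p below 0.05 (11.0% of all tested genes) and 0.0129% of all tested genes called. The adjusted p of the 5 called genes then lay between 0.395 and 0.558. DESeq2 on all 6 libraries called 11 of 38, and 27.5% of all tested genes, adding LAMP1 to the higher genes and RB1CC1, ATG14, ATG4C, OPTN and TAX1BP1 to the lower ones. Limma-voom called 6 of 38, and 12.5% of all tested genes, adding TAX1BP1.

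**Figure D4:**
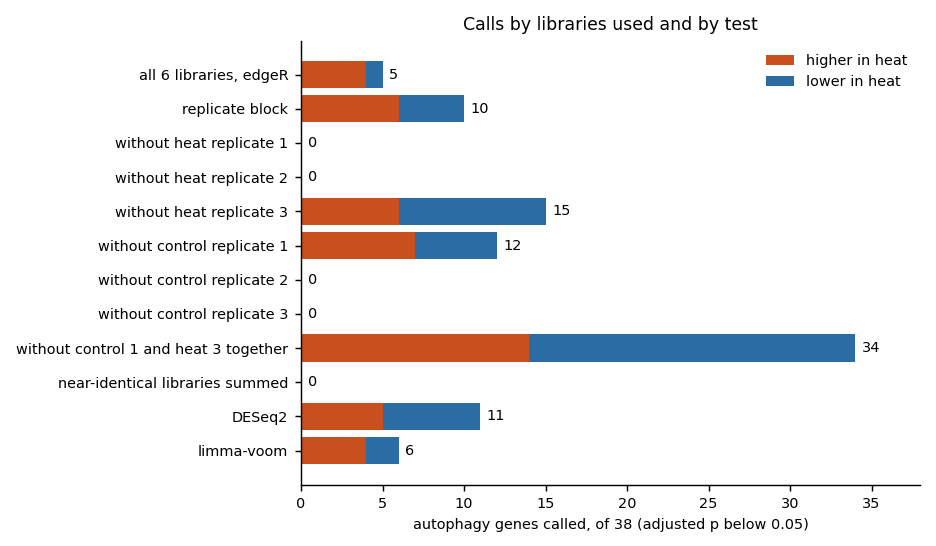
Number of the 38 autophagy genes called higher (orange) or lower (blue) in heat at an adjusted p below 0.05, by the libraries used and by test. The count is 5 with all 6 libraries in edgeR, 0 when heat 1, heat 2, control 2 or control 3 is left out, and 34 without heat 3 and control 1.

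Around the core machinery, 11 of 109 tested genes in 7 lists of autophagy and lysosome genes were called, 8 higher and 3 lower, which is 10.1% against 11.0% of all tested genes. The largest log2 fold changes were those of BAG3 and HSPB8. In the chaperone-assisted pathway these hand misfolded proteins to p62 and the autophagosome. BAG3, the co-chaperone at the centre of that pathway, had 428, 424 and 655 CPM in heat and 48.8, 13.4 and 16.3 CPM in control. All heat libraries were far above all control libraries, and BAG3 rose by 4.26 ± 0.62 on the log2 scale (edgeR adjusted p = 0.0276). HSPB8, its small heat shock protein partner, had 221, 213 and 269 CPM in heat and 10.4, 10.4 and 18.2 CPM in control and rose by 4.17 ± 0.39 (edgeR adjusted p = 0.00906). Control 1 of BAG3 was the highest control, while HSPB8 had its highest control value in control 3. Of the 7 tested genes of the chaperone-assisted list, 2 were called higher by edgeR and 5 were not called. The list's median was 1.02, with 2 negative values, the lowest -0.71.

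In the list of mTORC1 and AMPK genes, which set ULK1 activity, edgeR called 1 of 29 higher and 1 lower. AKT1S1 (PRAS40), an inhibitor of mTORC1, had 15.1, 17.6 and 18.5 CPM in heat and 3.07, 4.28 and 5.90 CPM in control, with no overlap, and rose by 1.95 ± 0.34 (edgeR adjusted p = 0.0276). PRKAA1, a catalytic subunit of AMPK, had 15.1, 13.5 and 36.8 CPM in heat and 57.0, 108 and 89.8 CPM in control. It fell by 1.96 ± 0.48 on the log2 scale (edgeR adjusted p = 0.0442), with heat 3 nearest to the controls, as for PIK3C3. The median of this list was 0.011.

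Lysosomal enzymes and membrane proteins had 2 of 29 called (6.9%), both higher, where 11.0% of all tested genes were called in either direction. Their median was 0.77 with 21 positive values, and over all tested genes the median was 0.052 with 52.1% positive. GAA, the acid alpha-glucosidase that degrades glycogen, had 45.0, 43.3 and 11.4 CPM in heat and 9.15, 2.88 and 4.17 CPM in control (2.63 ± 0.64, edgeR adjusted p = 0.0442). ATP6AP1, an accessory subunit of the proton pump, had 102, 89.0 and 39.6 CPM in heat and 25.8, 15.4 and 18.2 CPM in control (1.96 ± 0.43, edgeR adjusted p = 0.0384). Both had heat 1 and heat 2 highest, then heat 3, then control 1, as ATG9A did. FOXO3, a transcription factor of autophagy genes, had 92.1, 83.7 and 56.4 CPM in heat and 36.8, 19.6 and 17.4 CPM in control. It rose by 1.66 ± 0.40 (edgeR adjusted p = 0.0421). Of the 6 tested genes of the TFEB relatives and FOXO list (median 0.52), edgeR called FOXO3 alone.

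The list for fusion with the lysosome had 2 of 14 called, both higher, and a median of 0.36. PLEKHM1, an adaptor that links ATG8 proteins to the tethering complex, had 24.4, 22.1 and 15.4 CPM in heat and 9.68, 3.58 and 4.56 CPM in control (1.80 ± 0.44, edgeR adjusted p = 0.0442). GRAMD1A had 15.2, 15.2 and 13.2 CPM in heat and 6.21, 3.32 and 4.26 CPM in control (1.66 ± 0.34, edgeR adjusted p = 0.0339). It encodes a cholesterol transfer protein and not a fusion factor. Both were separated by group in every library.

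The genes that edgeR called lower in the remaining lists act at the endoplasmic reticulum. VMP1, a scramblase needed for autophagosomes to detach, had 261, 269 and 176 CPM in heat and 515, 706 and 667 CPM in control. It fell by 1.42 ± 0.36 on the log2 scale (edgeR adjusted p = 0.0472). Of the 11 tested genes of the phagophore list (median 0.48), edgeR called VMP1 alone. SEC62, a translocon subunit that also serves as a receptor for autophagy of the reticulum, had 143, 123 and 191 CPM in heat and 487, 492 and 381 CPM in control. It fell by 1.58 ± 0.35 (edgeR adjusted p = 0.0383) and was the only gene called by edgeR of 13 tested in the mitophagy and ER-phagy list (median -0.38). In VMP1, heat 3 was the lowest library, so that its place between the groups was not shared by every called gene.

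Without control 2 or control 3, edgeR called none of these 11 genes (adjusted p from 0.144 to 0.183 and from 0.120 to 0.169), and in these fits 16 and 17 of the 109 had an unadjusted p below 0.05, against 21.1 and 22.0% of all tested genes. Without heat 1 or heat 2, HSPB8 alone of the 11 was called (adjusted p = 0.0479 and 0.0427). All 11 were called without heat 3, and all 11 without control 1. With the near-identical libraries summed, 0 of 109 were called by edgeR, and 9 had an unadjusted p below 0.05, against 11.0% of all tested genes. The lowest adjusted p of the 11 was then 0.0666, for HSPB8. DESeq2 called 23 of the 109, and 27.5% of all tested genes.

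**Figure D5:**
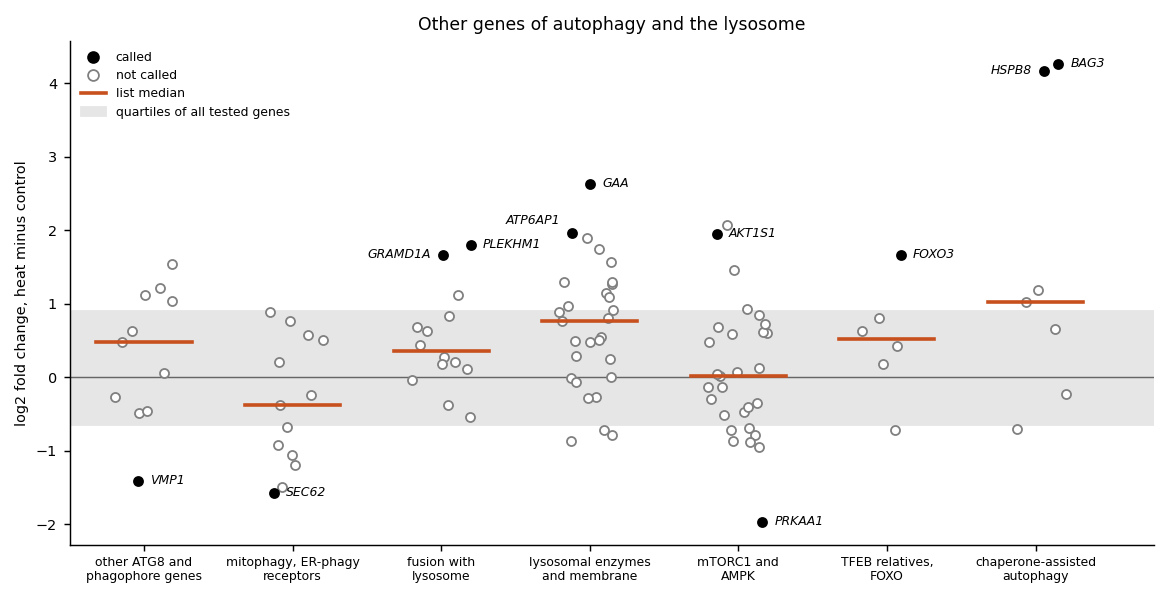
Log2 fold change, heat minus control, of the 109 tested genes in 7 further lists of autophagy and lysosome genes, with called genes filled and named. Orange bars are list medians, and the grey band marks the quartiles of all tested genes (-0.65 to 0.90); BAG3 and HSPB8 lie above 4.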

How the data were processed

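RNA of 6 libraries was analysed, grouped by the labels as 3 heat and 3 control. Per the submitters' processing notes, Trim Galore, FastQC 0.11.4 and STAR were used, with Sscrofa11.1 as the genome build. The sources used here do not name the counter, its strand setting, the annotation release or the normalization tool. Per the labels, the raw table is the authors' read counts per Ensembl gene, and its values are whole numbers. The other deposited table is a normalized signal for 13298 genes; multiplying it by 1 size factor per library gave whole reads for 100% of values (tolerance 1e-06), and the count test on those reads, added after seeing the data, called 1631 genes and 5 autophagy genes.

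Symbols came from an Ensembl name table (15623 identifiers, 11308 of the tested genes), and coordinates from RefSeq on Sscrofa11.1 by symbol. BNIP3, RTN3, LAMTOR4 and ZKSCAN3 and the markers CYP19A1, FOXL2, HSD3B1, VWF, KRT19, MSLN and HBA matched none and were not analysed here, nor were promoter motifs and sequences. MAP1LC3C and TFEC were too low to test, and of the mitophagy and ER-phagy list 13 of the 14 genes found were tested. Of the lysosomal enzyme and membrane list, 29 of 30 listed symbols matched. Not every gene of the further lists is reported here.

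Genes were kept by filterByExpr (minimum count 10), which left 14242 of 35670, and the 2 groups were compared in edgeR 4.0.16 (R 4.3.3) with its two-sided quasi-likelihood F test, robust estimates, TMM factors and no covariate. Adjusted p-values (Benjamini-Hochberg) cover all tested genes and were called below 0.05. The SE comes from the test, as |log2 fold change| over the root of F. Log2 CPM used a prior count of 2. Replicates had a common coefficient of variation of 43.6%. The fit was checked on simulated data. Of genes changed 2, 4, 8 and 16 fold (50 each), it called 2, 28, 76 and 94%, and it called 2 unchanged genes. A gene that did not pass is therefore not shown to be unchanged. The simulated libraries were independent of each other, so the check does not cover the near-identical pairs.

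The 38 genes, the 7 further lists and the marker lists were chosen with earlier results of these data known. The naming rule covered called genes, genes whose groups do not overlap, SQSTM1, MAP1LC3B, TFEB, LAMP1 and LAMP2, up to 4 called genes of each further list, BAG3 and HSPB8; values of the remaining autophagy genes were added after they were seen. Alternatives were RLE, upper-quartile and library-total scaling, no filter, 10 CPM in 3 libraries, the replicate block, leaving out each library or both that stand apart, summing near-identical libraries, DESeq2 1.42.0, limma-voom (limma 3.58.1), and limma on the authors' signal with pseudocounts of 1 and 0.5. Levels in CPM are not scaled for transcript length and were not compared between genes.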

Additional observations from a re-analysis of the deposited data

How the results depend on the processing

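With 3 libraries a group, 2 of them near-identical in each, the calls depended on single libraries. Of 924 values (49 single genes under up to 19 alternatives), 755 kept direction and side of the threshold. With direction kept, 86 lost a call and 60 gained one. The remaining 23 changed sign, and of these ATG7, GABARAP and GABARAPL1 were also called by edgeR without control 1 and heat 3. The count of autophagy genes called (5 in edgeR with all libraries) was 3 with RLE scaling, 11 with DESeq2, 34 without control 1 and heat 3, 0 with near-identical libraries summed, and 0 to 15 leaving out 1 library each. For the further lists (11), it was 23 with DESeq2, 96 without both, 0 summed and 0 to 37 leaving out 1 library. For all genes (1571), it was 2457 with no filter, 928 with 10 CPM in 3 libraries, 3910 with DESeq2, 12142 without both, 2 summed and 0 to 5530 leaving out 1 library. The median of the 38 genes (-0.0050) was -0.36 without both libraries and -0.20 to 0.061 leaving out 1. The cause of these shifts was not tested; the summed fit has fewer samples and the stricter filter fewer genes.

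Signs changed for ATG7 (-0.042 with RLE and with DESeq2), GABARAP (-0.0027 with RLE, -0.0026 with DESeq2) and UVRAG (0.011 with upper-quartile scaling, 0.12 with library totals, 0.11 with 10 CPM in 3 libraries). Without both libraries, ATG101 was -0.030, UVRAG 0.13, ATG7 -0.35, GABARAP -0.87 and GABARAPL1 -0.36, and summed, PIK3R4 was -0.084 and GABARAPL2 0.069. Leaving out 1 library gave ranges across 0 for ATG4A (-0.65 to 0.040), ATG7 (-0.19 to 0.14), GABARAP (-0.46 to 0.36), GABARAPL1 (-0.22 to 0.42), PIK3R4 (-0.13 to 0.42), SQSTM1 (-0.024 to 0.55) and UVRAG (-0.13 to 0.11).

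The replicate block gave 10 autophagy genes (6 higher, 4 lower), 20 of the further lists and 3404 of all genes. Same-numbered samples deviated together with correlations of 0.299, -0.232 and 0.223, and control 2 went best with heat 3 (0.287), so the numbers are not known to pair the samples. The lowest count of the 38 genes in a library was 19 reads (TFEB), where counting error is widest.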
